A study of Mus musculus with 8 samples.

Results

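The transcripts examined were 10 immediate-early genes that are not subunits of AP-1, taken by symbol as a fixed list from the 55401 genes for which values were deposited: Egr1, Myc, Klf4, Klf6, Klf10, Ier2, Ier3, Ier5, Dusp1 and Btg2. All 10 were among the 12122 genes abundant enough to test. They were measured by RNA-seq in AML12 cells, a hepatocyte line from the liver of a mouse transgenic for human TGF-alpha, in 4 control dishes and 4 dishes kept for 1 h in a pulsed, extremely low-frequency weak magnetic field (Opti-ELF-WMF). The field peaked at 100 mG, each pulse lasted 4 ms, and the pulse rate climbed from 1 to 8 Hz and then started again. Both groups were the same line in the same serum-containing medium with dexamethasone, insulin, transferrin and selenite, with no other treatment. By the study's methods, exposed and control cells came from 1 batch of cultured cells, and controls sat on a switched-off stimulator in a separate incubator of the same model, so the field and the incubator cannot be told apart. The labels only number the dishes within a group, so p-values here measure the spread between dishes of that batch, which may be technical.

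Immediate-early genes are transcribed within minutes of a growth factor, stress or depolarisation, from transcription factors already present in the cell, and their mRNAs are short-lived. Many reach a peak and are already declining about an hour after a stimulus, so a sample at one time point shows the level at that time only. In the liver they are known for a rapid surge after partial hepatectomy and after isolation of hepatocytes. The listed genes fall into 3 roles: transcription factors (Egr1, Myc and the Krüppel-like factors Klf4, Klf6 and Klf10), the small regulators Ier2, Ier3 and Ier5, and the brakes Dusp1 and Btg2.

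After 1 h of Opti-ELF-WMF the levels of these genes lay close to those of control dishes. Myc was the member with the clearest difference, at 90.01 ± 2.81 TPM in control dishes and 99.2 ± 2.02 TPM in exposed dishes (SD, n = 4 each), 10.2% higher. Btg2 lay furthest in the other direction, with a difference of -5.97%. For 9 of the 10 genes the log2 fold change was under 0.1 in size. With limma and Benjamini-Hochberg adjustment over all 12122 genes, 0 of the 10 passed an adjusted p-value of 0.05, and so did 0.0% of all tested genes. Without adjustment, 1 of the 10 (Myc) reached a p-value under 0.05, against 15.6% of all tested genes (12.0% higher and 3.65% lower). Exposed and control dishes were fully separated for 1 of the 10 (Myc, higher), against 9.87% of all tested genes (8.01% higher and 1.86% lower). Both shares of the list were near those of the whole table.

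TPM is a read share corrected for transcript length, with a common total in every dish. Levels can therefore be compared between genes, the sequencing depth is unknown, and a change in a few abundant transcripts shifts all others. Fold changes are differences of log2(TPM + 1), which understate changes of genes at low levels. In each dish, 19386 to 20114 genes had a TPM above 0. Transcripts of the mitochondrial genome held 8.94% ± 0.34 of TPM in control dishes and 7.04% ± 0.76 in exposed dishes (SD, n = 4 each). Where the unadjusted p-value was under 0.05, exposed dishes were higher for 76.6% of genes. This share was 55.2% with median-of-ratios scaling, 63.3% with upper-quartile scaling and 50.7% with mitochondrial genes left out of the total. The median log2 fold change of all genes was 0.03 as deposited, 0.0050 with median-of-ratios scaling, 0.01 with upper-quartile scaling and -0.0015 without mitochondrial genes, and changes of members are to be read against it.

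The dishes carried RNA of genes from both the hepatocyte and the cholangiocyte marker lists. All 9 hepatocyte markers were abundant enough to test, among them Ttr (353 TPM), Hnf4a (193 TPM) and Krt8 (2305 TPM), with Alb at only 52.4 TPM and Apoa1 at 4.16 TPM. The summed TPM of these 9 was 5431 to 5694 in control dishes and 5785 to 5995 in exposed dishes, most of it from Krt8 and Krt18 (1967 TPM). Both were higher in exposed dishes by 0.07 and 0.09 on the log2 scale (unadjusted p = 0.0138 and 0.00727 by limma). Of the 1213 tested genes from 130 TPM upward, 41.5% were higher with an unadjusted p-value under 0.05, with a median of 0.06. Of the 9 markers, 2 were higher by this measure as deposited, and 1 under each of the 3 other scalings. Among all tested genes, 12.0% were higher and 3.65% lower by it. None of the markers had an adjusted p-value under 0.05. The list did not move one way: 6 were higher and 3 lower, with Alb at -0.15 (unadjusted p = 0.0168), Apoa1 at -0.22 (0.0983) and Ttr at -0.04 (0.385). The cholangiocyte list had 4 of 6 genes tested, with Krt19 at 1161 TPM and Epcam at 0.05 TPM, and its sum was 1583 to 1684 TPM in control and 1607 to 1724 TPM in exposed dishes. Of 6 macrophage markers only Cd68 was tested, and Adgre1, Clec4f and Marco were listed at 0 in every dish, as was the endothelial marker Cdh5. The sums of the macrophage, endothelial, and fibroblast and stellate cell lists stayed at or below 2.34 TPM in every dish. In RNA pooled from a whole dish, fewer cells of a type and less RNA per cell cannot be told apart.

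The listed genes share a compact structure that their choice did not use. In GENCODE M21 on GRCm38, 9 of 10 spanned at most 10000 bases, against 23.9% of the 10858 tested coding genes, and 9 of 10 had at most 4 exons in the transcript examined, against 20.4%. Dusp1, on chr17:26505590-26562128, was the exception in span, with a gene record of 56539 bases. It lies on the minus strand, and its RefSeq promoter window printed below (chr17:26508583-26508640) falls inside this record, near the first coordinate. The record is therefore far longer than the stretch transcribed from that start. Klf4, on chr4:55527143-55532466, was the exception in exons, with 5. Ier2, on chr8:84661331-84662852, and Ier5, on chr1:155096361-155099636, had 1 exon each. The remaining records lay at chr15:61985391-61990374 (Myc), chr13:5861482-5870394 (Klf6), chr15:38291463-38300706 (Klf10), chr17:35821684-35822923 (Ier3) and chr1:134075170-134079120 (Btg2). No other gene's transcript matched a member at 95% identity or more over at least 150 bases. Only Dusp1 overlapped other genes: its record shares 640 bases with Ergic1 on the opposite strand, which lay between 190 and 214 TPM, and the strand setting used for counting is not given in the sources used here.

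The 3′ UTRs of short-lived early mRNAs are known for AU-rich elements, which contain the pentamer ATTTA in DNA letters. At least 1 ATTTA was found in the annotated 3′ UTR of 9 of the 10 genes, against 69.6% of tested coding genes, and at least 3 in 5 of the 10, against 38.1%. Ier2 had 0. Klf6 had the most, 7 in 3111 bases, and Ier3 the densest set, 5 in 613 bases or 8.16 per kb, where the median of tested coding genes was 1.34 per kb. Stretches of 30 bases that hold 2 copies of the pentamer are shown for 3 members. Egr1, with 2 copies in its 3′ UTR, was not searched for such a stretch. Capitals mark ATTTA, and bases are counted from the start of the 3′ UTR of the GENCODE M21 transcript.
Ier3, bases 174 to 203: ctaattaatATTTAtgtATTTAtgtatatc
Dusp1, bases 94 to 123: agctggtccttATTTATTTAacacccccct
Btg2, bases 1323 to 1352: aATTTAtttgtagatgtgtgcaatATTTAc
In Dusp1 the copies overlap by 1 base, in Ier3 they lie 3 bases apart, and in Btg2 they stand near opposite ends of the stretch. A match is a description of the sequence and not a measurement of decay.

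Promoters of early genes are known for binding CREB at cyclic AMP response elements and SRF at CArG boxes. RefSeq promoters on GRCm38.p6, from 250 bases before to 50 after the start, were matched for 6 of the 10 genes (Btg2, Ier5, Klf4, Klf6, Dusp1 and Ier3). Egr1, Ier2, Klf10 and Myc had no match, so their promoters were not searched. Both strands were searched. Shares are over all promoters in the set, without a filter for expression, unlike the shares of tested coding genes given above. The full element TGACGTCA was present in 2 of the 6, against 1.79% of 32851 promoters, and its shorter core TGACG, which the full element contains, in 3 of the 6, against 20.8%. The GC box GGGCGG was present in 6 of the 6, against 35.7%, and the E-box CACGTG, the letters that MYC with its partner MAX is known to bind, in 3 of the 6 (Klf4, Klf6 and Dusp1), against 7.15%. A CArG box, the TATA box TATAAA and the AP-1 site TGANTCA were found in 0 of the 6, against 1.63%, 13.6% and 7.81% of promoters. The windows around the full element are shown because the 2 genes that carry it, Btg2 and Dusp1, are the 2 brakes of the list. Both lie on the minus strand and are printed in the direction of the gene, with the element in capitals.
Btg2, chr1:134079289-134079346: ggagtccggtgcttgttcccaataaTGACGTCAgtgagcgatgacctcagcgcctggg
Dusp1, chr17:26508583-26508640: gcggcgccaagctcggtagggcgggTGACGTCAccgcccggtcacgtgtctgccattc
The element begins at position -166 in Btg2 and -143 in Dusp1, relative to the start. In Dusp1 the E-box follows at -126.

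Levels ranged widely between members. In order of the mean of all 8 dishes, Klf6 (106 TPM) was highest, followed by Myc (94.6), Ier3 (52.0), Ier5 (50.5), Dusp1 (43.9), Ier2 (32.3), Klf10 (27.1), Btg2 (21.1), Klf4 (6.11) and Egr1 (4.76). The ranges of the 8 dishes overlapped between neighbours in 4 places: Klf6 and Myc, Ier3 and Ier5, Ier2 and Klf10, and Klf4 and Egr1. Within a dish, Klf6 exceeded Myc in 8 of 8 dishes, but Ier3 exceeded Ier5 in only 5 of 8. Egr1, often among the most strongly inducible of these genes, was the least abundant, with 18.6% of tested genes below it. Klf6 had 87.5% below it.

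**Figure D1:**
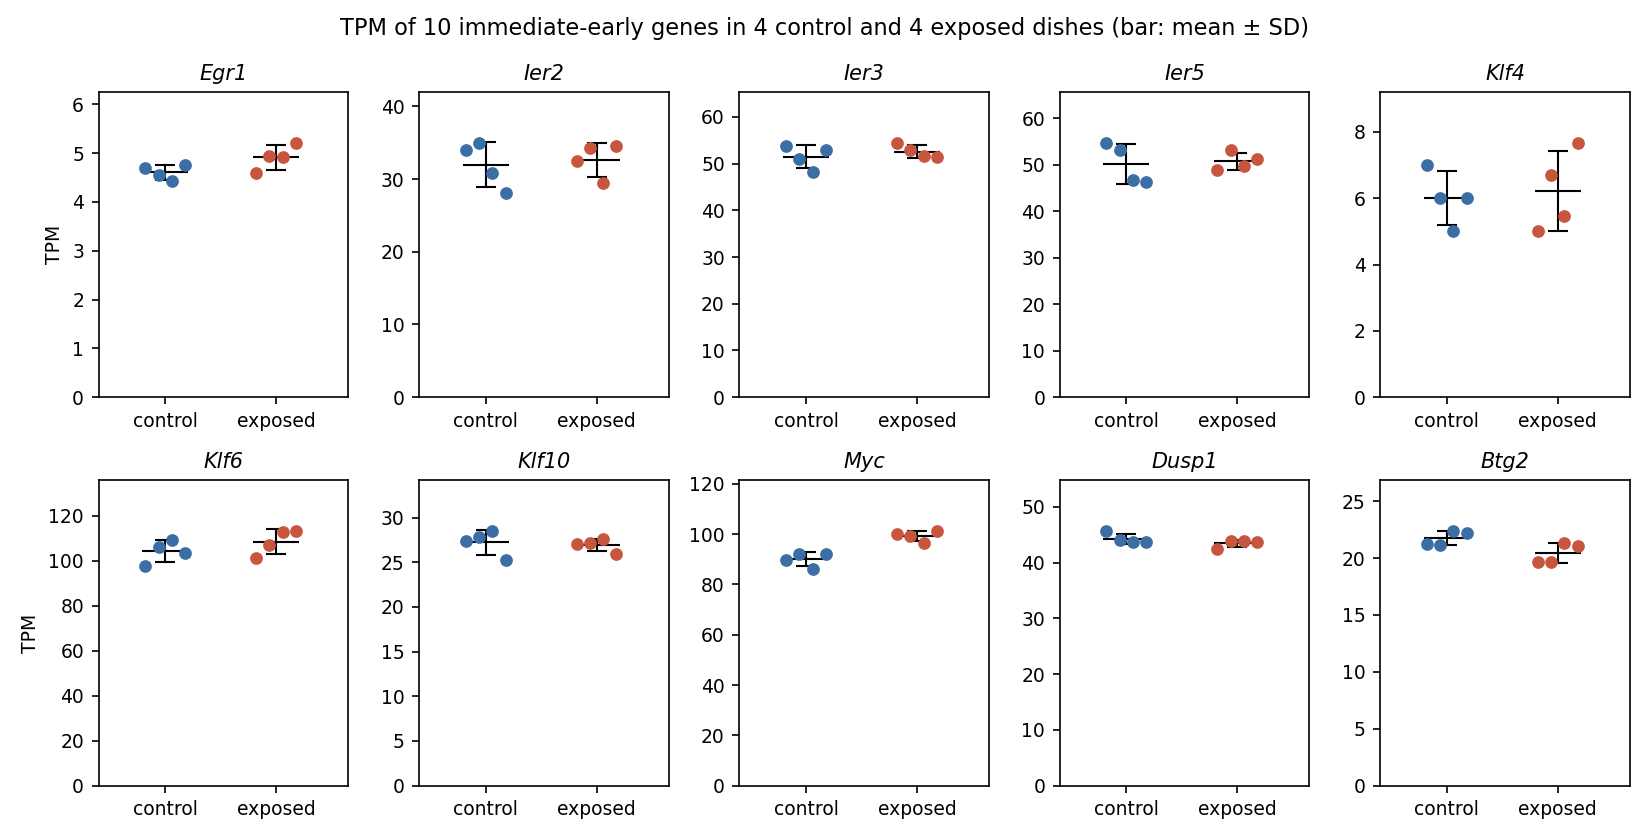
TPM of the 10 genes (vertical axes, each from 0) in the 4 control and 4 exposed dishes; each point is a dish, and the bars show the mean ± SD. The points of the 2 conditions overlap for every gene but Myc, whose exposed dishes lie between 96.4 and 101 TPM and whose control dishes lie between 86.1 and 92.1 TPM.

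Among the transcription factors, Myc encodes a bHLH-zipper protein that drives genes for ribosome production and cell growth. Its 4 control dishes, in the order of their numbers, had 89.78, 92.01, 86.12 and 92.14 TPM. The 4 exposed dishes had 100.07, 99.28, 96.39 and 101.08 TPM. Every exposed dish lay above every control dish, and the gap between the groups (92.14 to 96.39 TPM) was larger than the SD of either. The log2 fold change was 0.14 (standard error 0.03, 95% interval 0.07 to 0.21), with an unadjusted p-value of 0.00104 and an adjusted p = 0.122 by limma. A two-sided exact permutation test over the 70 assignments of dishes gave p = 0.0286, the smallest that 4 dishes against 4 allow. The interval corresponds to a 1.05- to 1.15-fold higher value of TPM + 1. Changes of this size were not rare in the table: 6.24% of tested genes had a log2 fold change at least as high. By limma p-value, 93 of the 12122 tested genes, Myc included, lay at or below the value of Myc. Myc also varied little between dishes of a condition, with a residual SD of 0.04 (log2), and 10.6% of tested genes had a smaller one.

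Egr1, on chr18:34859823-34864984, encodes a zinc finger factor induced through SRF and ERK signalling. Control dishes had 4.70, 4.55, 4.42 and 4.75 TPM, and exposed dishes 4.59, 4.94, 4.92 and 5.21 TPM. Exposed dishes 2 to 4 lay above all control dishes, and exposed dish 1 lay among them. The means were 4.605 ± 0.150 and 4.915 ± 0.254 TPM (SD, n = 4), a log2 fold change of 0.08 (interval -0.06 to 0.21, adjusted p = 0.590 by limma, exact permutation p = 0.0857). Its relatives Egr2 (0.41 TPM) and Egr3 (0.07 TPM) were under the limit for testing, and Egr4 was listed at 0 in all 8 dishes. The corepressors that bind EGR proteins were present, Nab1 at 60.7 TPM and Nab2 at 7.17 TPM, with log2 fold changes of 0.07 and 0.05 and unadjusted p-values of 0.0592 and 0.430 by limma.

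The 3 Krüppel-like factors spanned most of the range of levels. Klf6, an activator expressed in liver and other tissues and induced by injury, had 97.81, 105.98, 109.50 and 103.71 TPM in control dishes. Exposed dishes had 101.41, 107.02, 112.94 and 113.15 TPM. The groups overlapped widely, the lowest values being dish 1 in both, and the means were 104 ± 4.91 and 109 ± 5.59 TPM (SD, n = 4). The log2 fold change of Klf6 was 0.06 (interval -0.04 to 0.16, adjusted p = 0.583 by limma).

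Klf10, a factor known as an early target of TGF-beta, had 27.38, 27.78, 28.45 and 25.27 TPM in control dishes and 27.09, 27.16, 27.58 and 25.95 TPM in exposed dishes. All exposed values lay within the range of the controls. Its log2 fold change was -0.01 (interval -0.11 to 0.08, adjusted p = 0.916 by limma).

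Klf4, a pluripotency and epithelial differentiation factor, had 7.00, 6.02, 5.01 and 6.01 TPM in control dishes and 5.02, 6.71, 5.46 and 7.67 TPM in exposed dishes. Exposed dishes held both the highest value and values close to the lowest control. The log2 fold change was 0.03, with the widest interval of the list, -0.25 to 0.31 (adjusted p = 0.928 by limma). Klf4 had the largest spread between dishes of a condition, a residual SD of 0.21, and 90.9% of tested genes had a smaller one. The change of Klf4 is therefore known only to within that interval.

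Of 17 KLF family genes, 12 were tested, 7 higher and 5 lower, with a median log2 fold change of 0.02, where the median of all tested genes was 0.03. Klf9 (71.8 TPM), Klf3 (60.4 TPM) and Klf13 (51.1 TPM) followed Klf6 in level, and Klf14 and Klf17 were listed at 0. Only Klf5, a relative tied to epithelial proliferation, had an unadjusted p-value under 0.05, as 15.6% of all tested genes did. It had 39.6 ± 0.862 TPM in control and 42.6 ± 1.03 TPM in exposed dishes (SD, n = 4), and every exposed dish was higher (log2 fold change 0.10, unadjusted p = 0.00856, adjusted p = 0.171 by limma). That separation was lost under all 3 other scalings, which left 0 of the 12 genes higher without overlap, and after rescaling without mitochondrial genes 0 of the 12 had an unadjusted p-value under 0.05. The smallest p-value among lower genes was that of Klf7 (-0.02, unadjusted p = 0.695 by limma).

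The immediate early response genes Ier2, Ier3 and Ier5 encode small regulatory proteins that are not classical DNA-binding factors. Ier3, linked to cell survival under stress, had 53.79, 51.08, 48.21 and 52.91 TPM in control dishes and 54.44, 52.86, 51.70 and 51.34 TPM in exposed dishes. The groups overlapped widely, and control dish 3 was the lowest of the 8. The means were 51.5 ± 2.47 and 52.6 ± 1.40 TPM (SD, n = 4), and the log2 fold change was 0.03 (interval -0.06 to 0.12, adjusted p = 0.768 by limma).

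Ier5, known to link the phosphatase PP2A to heat shock factor, had 54.72, 53.11, 46.77 and 46.36 TPM in control dishes and 48.93, 53.16, 49.81 and 51.23 TPM in exposed dishes. The control dishes fell into a higher and a lower pair, and all exposed values lay between the extremes of the controls. Its log2 fold change was 0.02 (interval -0.11 to 0.15, adjusted p = 0.912 by limma), and its sign turned under several alternatives. Ier2, a nuclear protein of the same family as Ier5, had 34.04, 34.99, 30.86 and 28.13 TPM in control dishes and 32.48, 34.25, 29.40 and 34.52 TPM in exposed dishes. Each group held high and low dishes, and the log2 fold change was 0.03 (interval -0.13 to 0.20, adjusted p = 0.887 by limma). Its residual SD of 0.12 was larger than that of 75.4% of tested genes.

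Dusp1 and Btg2, which act as brakes, were both lower in exposed dishes by amounts that did not pass the test. Btg2 encodes an antiproliferative protein that is a p53 target and recruits deadenylases to mRNA. It had 21.26, 21.17, 22.35 and 22.18 TPM in control dishes and 19.70, 19.65, 21.36 and 21.06 TPM in exposed dishes. Exposed dishes 1, 2 and 4 lay below all controls, while exposed dish 3 (21.36 TPM) lay above control dishes 1 and 2. The means were 21.7 ± 0.611 and 20.4 ± 0.895 TPM (SD, n = 4). The log2 fold change was -0.09 (standard error 0.04, interval -0.18 to 0.0092), with unadjusted p = 0.0719 and adjusted p = 0.370 by limma and exact permutation p = 0.0857, and 13.1% of tested genes had a value as low or lower.

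Dusp1 encodes the nuclear phosphatase that switches off ERK, p38 and JNK. Control dishes had 45.60, 43.99, 43.78 and 43.77 TPM and exposed dishes 42.38, 43.79, 43.92 and 43.61 TPM. Apart from control dish 1, which was high, and exposed dish 1, which was low, the other 6 dishes lay between 43.61 and 43.99 TPM. The log2 fold change was -0.03 (interval -0.09 to 0.04, adjusted p = 0.706 by limma). This was the steadiest member, with a residual SD of 0.03, and only 2.24% of tested genes had a smaller one.

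The calls for these 2 genes depended on the scaling. Btg2 was lower in every exposed dish than in any control with median-of-ratios scaling (log2 fold change -0.11, unadjusted p = 0.0275) and after rescaling without mitochondrial genes (-0.11, unadjusted p = 0.0311), but overlapped with upper-quartile scaling (-0.10, unadjusted p = 0.0391, all by limma). Its adjusted p-values were 0.338, 0.380 and 0.356. Dusp1 did not overlap, and was lower, under all 3 scalings, with log2 fold changes of -0.05, -0.06 and -0.04 and unadjusted limma p-values of 0.113, 0.0800 and 0.215, for median-of-ratios, rescaled and upper-quartile values. Among all tested genes the share that did not overlap and was lower was 3.37%, 3.25% and 2.78% in that order, and the share lower with an unadjusted p-value under 0.05 was 5.52%, 5.58% and 4.76%. Myc kept its separation under each of these, with log2 fold changes of 0.12, 0.11 and 0.13.

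**Figure D2:**
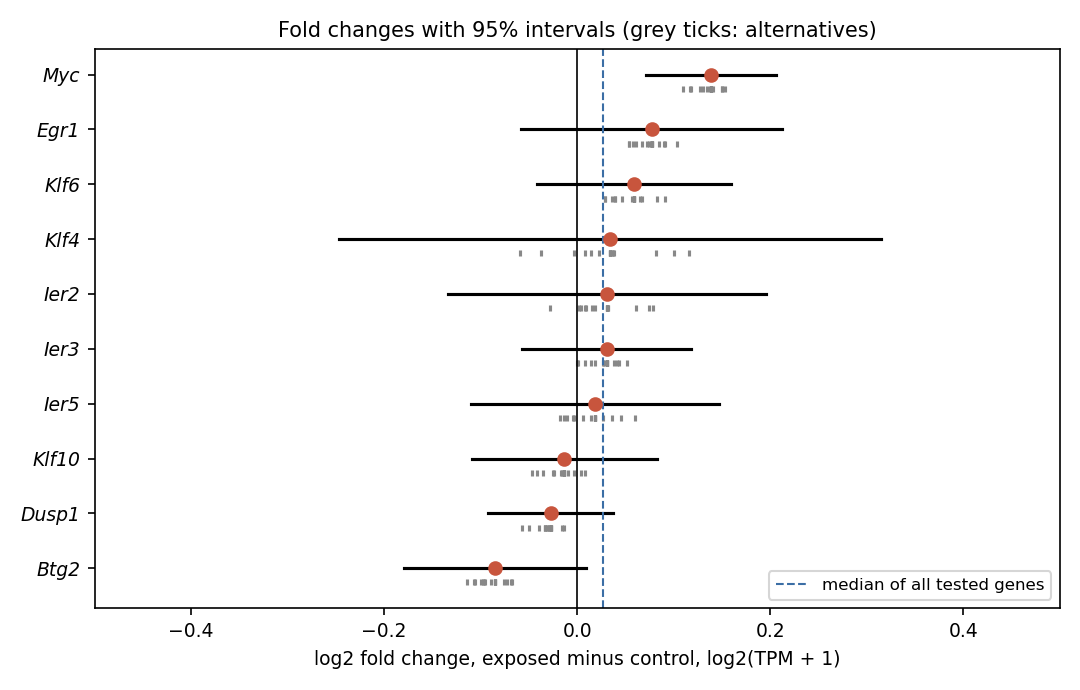
Log2 fold change of each gene, exposed minus control, on the log2(TPM + 1) scale (horizontal axis); red points are the fitted values, black bars their 95% intervals, grey ticks the values under 16 alternatives, and the dashed line the median of all tested genes (0.03). Only the interval of Myc lies wholly on one side of 0, and all 10 intervals lie within -0.25 and 0.31.

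The intervals are 95% intervals for single genes without adjustment, so they do not set the limit of the adjusted test. The interval of Myc lay above 0, for example, while its adjusted p-value was 0.122 by limma. All 10 lay within 0.5 of 0 on the log2 scale, and 9 of the 10 within 0.25, Klf4 being the exception. The median of the 10 log2 fold changes was 0.03, against 0.03 for all tested genes, with 7 higher and 3 lower where 63.7% of all tested genes were higher. Changes by many times, of the kind known for these genes after serum, lay outside all 10 intervals at 1 h.

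Ratios between members within a dish do not depend on the scaling. Of the 45 pairs, 5 had ratios that did not overlap between conditions, and each involved Myc or Btg2. The 45 ratios come from 10 values in each dish, so they are not independent and partly restate differences of single genes. Among single tested genes 9.87% did not overlap, and the share among ratios of other genes was not computed. Myc to Btg2 was 4.14 ± 0.210 in control and 4.86 ± 0.264 in exposed dishes. Myc to Dusp1 was 2.03 ± 0.0755 and 2.29 ± 0.0716. The others were Ier3 to Myc, which was lower in exposed dishes, and Egr1 to Btg2 (0.212 ± 0.00997 and 0.241 ± 0.0104) and Klf6 to Btg2 (4.80 ± 0.189 and 5.31 ± 0.128), which were higher (SD, n = 4 each). The ratio of Myc to Klf6, its neighbour in level, overlapped between conditions. These ratios are descriptions of the dishes and were not tested.

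The dishes did not deviate as a block. Exposed dish 4 held the highest of the 8 values for 4 of the 10 genes (Egr1, Klf4, Klf6 and Myc), and control dish 3 held the lowest for 4 (Egr1, Ier3, Klf4 and Myc). Control dishes 1 and 3 each held the highest for 2. The median deviation of the 10 genes from their own means ran from -0.07 in control dish 3 to 0.06 in exposed dish 4. Ier2 and Ier5 shared their low control dishes, 3 and 4.

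**Figure D3:**
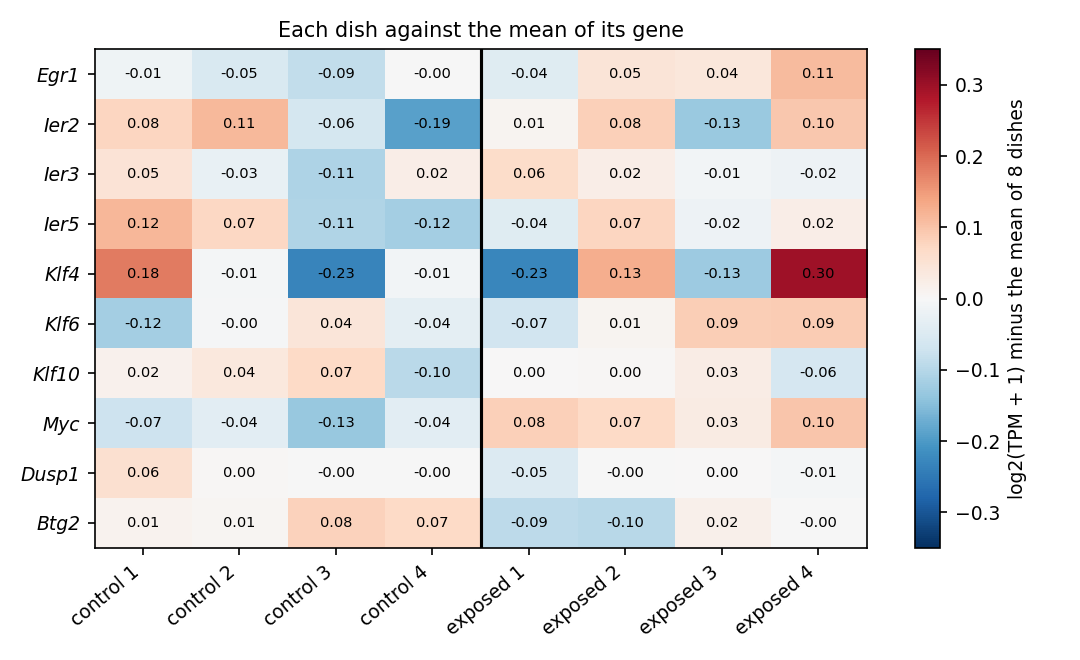
Deviation of each dish (columns) from the mean of all 8 dishes for each of the 10 genes (rows), in log2(TPM + 1); red is above and blue below the mean. Myc is the only row with one colour on each side of the line between conditions, and the deepest colours belong to Klf4, from -0.23 to 0.30.

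Fold changes in the table varied with the level of the gene, and this bears on how each member compares with genes like it. The 12122 genes were divided into 10 bins of nearly equal size by mean TPM. Across the bins, the median log2 fold change ran from -0.04 in the lowest bin to 0.06 in the highest, and the share of genes higher with an unadjusted p-value under 0.05 ran from 2.47% to 41.5%. Among the 1567 genes within 1.5 times the level of Myc (63.1 to 142 TPM), 23.8% were higher with an unadjusted p-value under 0.05, while 15.5% were higher without overlap and the median was 0.05. Myc lay 0.09 above the median of its bin, with 96.9% of that bin below it. Klf6, in the same bin, lay 0.0091 above the median. At the other end Btg2 lay 0.11 below the median of its bin, with 9.90% of genes below it, and Dusp1 0.06 below, with 16.4% of genes below it. Egr1 lay 0.09 above the median of its bin, with 76.8% below it, and Ier2, Ier3, Ier5, Klf4 and Klf10 lay within 0.04 of theirs.

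**Figure D4:**
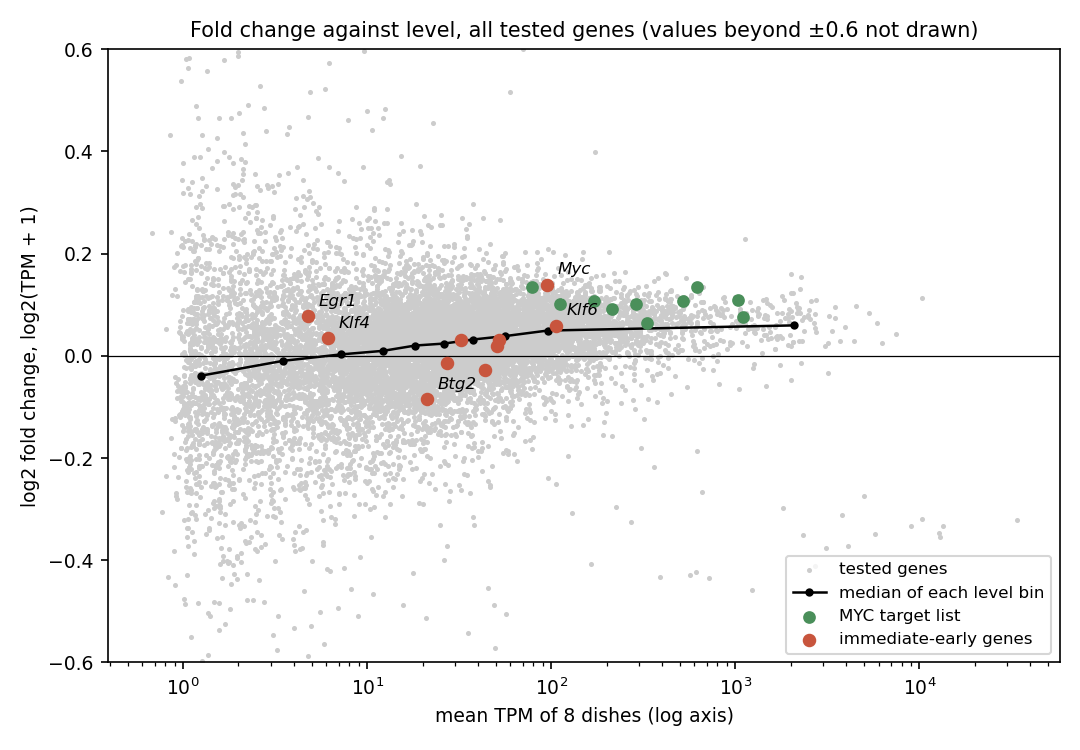
Log2 fold change, exposed minus control, on the log2(TPM + 1) scale (vertical axis) against the mean TPM of the 8 dishes (horizontal log axis) for all tested genes (grey; values beyond 0.6 in size are not drawn), with the 10 immediate-early genes in red, 10 MYC target genes in green and the median of each bin as a black line. The line climbs from -0.04 to 0.06, and Myc and the MYC targets lie above it.

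The signalling parts that feed these promoters were all expressed. Of 21 genes for growth factor receptor, RAS, ERK, and SRF and its partner factors, all 21 were tested, and Hras was the most abundant (160 TPM). None had an adjusted p-value under 0.05, and 4 were higher and 0 lower with an unadjusted one under 0.05, where the shares among 10703 genes in the range of their levels were 9.60% and 3.69%. The 4 became 3 with median-of-ratios and with upper-quartile scaling and 2 after rescaling. The smallest p-value was that of Nras, a RAS GTPase, with 104 ± 2.88 TPM in control and 114 ± 3.08 TPM in exposed dishes (SD, n = 4; log2 fold change 0.13, unadjusted p = 0.00178, adjusted p = 0.122 by limma). The split of the list moved with the scaling: 20 of 21 were higher as deposited, with only Mrtfa, a coactivator of SRF, lower (-0.02), but 14 with median-of-ratios, 16 with upper-quartile and 12 with rescaled values. As deposited, 62.5% of the 10703 genes in the range of their levels were higher. That share rose with level, from 41.0% in the lowest of the 10 bins to 87.3% in the highest. The AP-1 list had 6 of 7 genes tested and a median log2 fold change of -0.0016. Fosl1, an AP-1 subunit held up by ERK signalling, had 66.6 ± 1.72 TPM in control and 76.9 ± 2.89 TPM in exposed dishes (SD, n = 4; log2 fold change 0.20, unadjusted p = 0.000166, adjusted p = 0.122 by limma). Junb was the most abundant (206 TPM, log2 fold change -0.0025), and Fosl2 had the smallest p-value among lower genes (-0.13, unadjusted p = 0.119 by limma).

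A wider list of 44 other early response genes had 38 tested, and 0 passed the adjusted test. Without adjustment, 5 higher and 3 lower genes reached a p-value under 0.05, and the dishes did not overlap for 7 higher and 3 lower. Among all tested genes those shares were 12.0% and 3.65% by p-value and 8.01% and 1.86% without overlap. With median-of-ratios and with rescaled values the counts were 3 higher and 4 lower by p-value and 4 higher and 4 lower without overlap. The list was split, 20 higher and 18 lower, with a median log2 fold change of 0.0021. The most abundant was Ccn2, a matricellular protein, at 673 TPM and with a log2 fold change of 0.02 (unadjusted p = 0.626 by limma). The smallest p-value among lower genes belonged to Nfkbiz, an inducible regulator of NF-kappaB, which had 11.8 ± 0.407 TPM in control and 9.67 ± 0.469 TPM in exposed dishes (SD, n = 4; log2 fold change -0.26, unadjusted p = 0.000404, adjusted p = 0.122 by limma). Its control dishes lay between 11.3 and 12.3 TPM and its exposed dishes between 9.25 and 10.3 TPM. Among higher genes it belonged to Dusp5.

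Of the 10 MAP kinase phosphatases 9 were tested, 7 higher and 2 lower, with a median log2 fold change of 0.10. None had an adjusted p-value under 0.05 and 2 had an unadjusted one, and 60.1% of genes in the range of their levels were higher. Dusp5, the nuclear phosphatase that acts on ERK alone, had 19.93, 19.37, 19.48 and 19.05 TPM in control dishes and 22.15, 23.32, 21.06 and 22.11 TPM in exposed dishes (log2 fold change 0.18, standard error 0.04, unadjusted p = 0.00136, adjusted p = 0.122 by limma). Dusp6, its cytoplasmic counterpart for ERK, had 50.1 ± 1.97 TPM in control and 56.1 ± 1.81 TPM in exposed dishes (SD, n = 4; log2 fold change 0.16, unadjusted p = 0.00160, adjusted p = 0.122 by limma). In both, every exposed dish lay above every control dish, and the same held for Dusp9, from 2.86 ± 0.238 to 3.26 ± 0.149 TPM (unadjusted p = 0.0809 by limma). Of 7349 genes within the range of levels of this family, 6.65% were higher with an unadjusted p-value under 0.05, while 4.52% were higher without overlap. Under each of the 3 other scalings the family held 2 genes higher without overlap, not 3. Dusp2 lay at 0.01 TPM and was not tested. Whether Dusp1 differed from Dusp5 and Dusp6 was not tested.

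**Figure D5:**
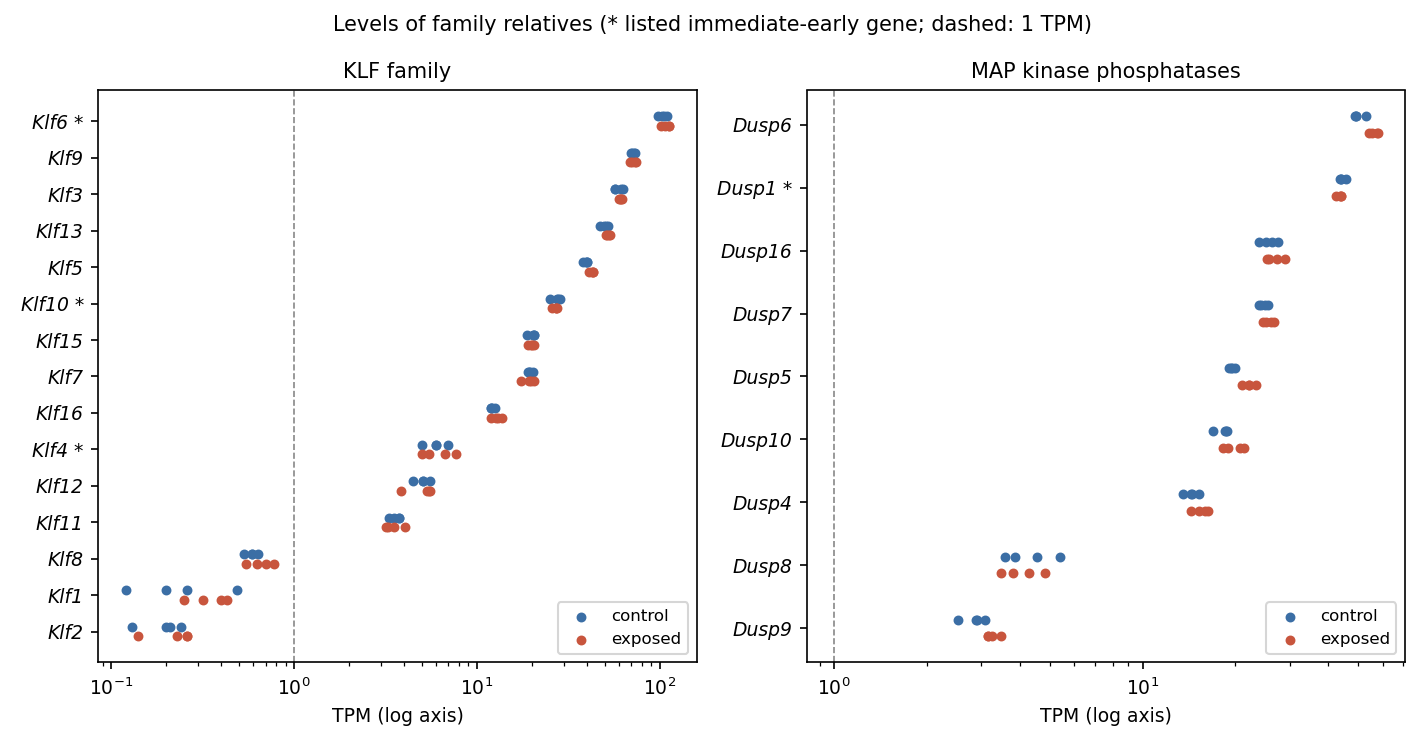
TPM (horizontal log axis) of the KLF family genes and MAP kinase phosphatases above 0 in every dish, in control (blue) and exposed (red) dishes, ordered by level; asterisks mark the listed immediate-early genes and the dashed line is 1 TPM. Exposed points of Dusp5, Dusp6, Dusp9 and Klf5 lie wholly to the right of the control points, and those of Dusp1, Klf4, Klf6 and Klf10 overlap them.

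Around Myc, 10 of 12 genes of the MYC and MAX network were tested, with a median log2 fold change of 0.03. Myc was the only one with an unadjusted p-value under 0.05, which 15.6% of all tested genes had. Mnt, a repressor that competes for MAX, had the smallest p-value among lower genes (-0.05, unadjusted p = 0.495 by limma). The relatives of Myc, Mycn (0.64 TPM) and Mycl (0.21 TPM), were at low levels, so Myc supplied nearly all MYC family mRNA. Max, the partner through which MYC binds DNA, had 40.52, 38.22, 38.36 and 41.29 TPM in control dishes and 40.69, 41.52, 57.44 and 43.23 TPM in exposed dishes. Exposed dish 3 stood well above the other 7, and the groups overlapped (log2 fold change 0.19, unadjusted p = 0.0773 by limma). Mlx (61.0 TPM) and Mxd4 (36.7 TPM) were also abundant, with log2 fold changes of 0.04 and 0.0062.

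All 10 genes of a list of MYC targets were higher in exposed dishes, each with an unadjusted p-value under 0.05 and 0 with an adjusted one, and 8 of the 10 did not overlap between conditions. Log2 fold changes ran from 0.06 to 0.13, with a median of 0.10. Ncl, the nucleolar protein nucleolin, had 587 ± 14.8 TPM in control and 644 ± 6.75 TPM in exposed dishes (SD, n = 4; log2 fold change 0.13, unadjusted p = 0.000236, adjusted p = 0.122 by limma). Ldha, the lactate dehydrogenase subunit, was the most abundant at 1108 TPM (log2 fold change 0.08, unadjusted p = 0.00940 by limma). These are abundant genes. Of the 2010 tested genes between 78.5 and 1108 TPM, 34.3% were higher with an unadjusted p-value under 0.05, while 23.1% were higher without overlap and the median log2 fold change was 0.06. At any p-value, 86.6% of the 2010 were higher. In the highest of the 10 level bins, from 130 TPM upward, 41.5% were higher with an unadjusted p-value under 0.05 and 28.5% without overlap. With each of the 3 other scalings all 10 remained higher, 8 with an unadjusted p-value under 0.05 and 6, 6 and 5 without overlap for median-of-ratios, upper-quartile and rescaled values. The mitochondrial share moved with the same dishes, and its part in these values beyond the rescaling was not tested.

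Around Btg2, 5 of 6 genes of the BTG and TOB family were tested, 3 higher and 2 lower, with a median log2 fold change of 0.00041. Btg1, the closest relative of Btg2, was higher in exposed dishes. It had 94.48, 94.89, 94.86 and 89.64 TPM in control dishes and 110.2, 108.9, 95.69 and 96.12 TPM in exposed dishes. All exposed dishes were higher, 2 of them by a wide margin and 2 barely (log2 fold change 0.13, unadjusted p = 0.0271, adjusted p = 0.249 by limma). This call and this separation were lost under all 3 other scalings, where 0 of the 5 genes were higher by either measure. Under each, 2 of the 5 were lower with an unadjusted limma p-value under 0.05, Btg2 itself among them. Among all tested genes that share was 5.52%, 4.76% and 5.58% for median-of-ratios, upper-quartile and rescaled values. Tob2 was lower, as Btg2 was, with 29.8 ± 2.17 and 27.3 ± 1.73 TPM (SD, n = 4; log2 fold change -0.12, unadjusted p = 0.0673 by limma). Btg4 was at 0.095 TPM.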

How the data were processed

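Libraries were prepared with a stranded poly(A) mRNA kit and read as 150 bp pairs on an Illumina NovaSeq. What the authors deposited was a TPM table for each dish, covering 55401 genes. According to the submitters' processing notes the tools included Trimmomatic 0.39, STAR 2.7.4a and RSEM 1.3.3 with build mm10. The annotation is not given in the sources used here. TPM keeps no depth, so no counting interval or detection limit is given, and the count tests foreseen for count tables were not run.

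The members and the lists were chosen with earlier results of these data known. The list was taken by gene symbol, and the 12122 genes that reached a TPM of 1 in 4 or more dishes were compared as log2(TPM + 1) of the deposited values with limma 3.58.1 in R 4.3.3 (lmFit, eBayes with a trend, no covariates), adjusted by Benjamini-Hochberg over all of them. Single values were also compared by two-sided exact permutation over 70 assignments. The fit was first tested on simulated data with the means and spreads of the real genes, in which 200 genes were changed. At an adjusted p-value under 0.05 it recovered 42%, 83% and 97.5% of them for log2 changes of 0.25, 0.5 and 1. False calls numbered 4, 8 and 12, in that order, and 0 with no gene changed. Named genes were all 10 members, of each related list the genes with the lowest p-value among higher and among lower genes and the most abundant gene, and family relatives for their level. The fold changes of Dusp9, Max, Mlx, Mxd4 and Nab2 were added after their values were seen. Marker genes were named from fixed lists, a few of each.

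Gene structure was read from GENCODE M21 (GRCm38; 55141 gene identifiers matched), and promoters came from RefSeq on GRCm38.p6. Tables were handled with Python 3.11.15, pandas 2.3.3 and numpy 2.4.6. Pearson's r across genes was 0.99642 to 0.99757 between dishes and at most 3.79% of values were identical, so each dish counted as 1 sample. Alternatives covered the pseudocount, the filter, 3 scalings, the trend, a replicate block and leaving out each dish.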

Additional observations from a re-analysis of the deposited data

Results flagged for a closer look

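Control dish 1 had the highest Dusp1 level of its group, 45.6 TPM, while the other 3 control dishes lay at 43.77, 43.78 and 43.99 TPM. Its gap to the next dish was 0.880 of the range of the group, above Dixon's critical value for 4 samples. With 20 groups of 4 dishes examined, chance gives about 1 in 20 such cases.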

How the results depend on the processing

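Of 160 member values over 16 alternatives, 148 kept direction and side of the threshold, and 0 members had an adjusted p-value under 0.05 in any. Myc kept 0.11 to 0.15 without overlap in all 16 (adjusted p 0.116 to 0.278), Egr1 ran from 0.05 to 0.10 (0.426 to 0.811) and Btg2 from -0.11 to -0.07 (0.331 to 0.5998). Only the 3 scalings could have ended the separation of Myc, since the other alternatives kept the deposited TPM or left out a dish. The filters, the trend and the block could not move a fold change, so the directions they kept were fixed in advance. Genes called by limma in the whole table numbered 1 with TPM of at least 1 in every sample, with median-of-ratios scaling, with upper-quartile scaling and without the trend, and 0 to 2 with each dish left out (2 without control replicate 2 and 1 without control replicate 3). Members without overlap numbered 3 with median-of-ratios scaling, 2 with upper-quartile scaling and 3 when rescaled without mitochondrial genes. Of all tested genes 7.94%, 8.24% and 7.08% did not overlap, in that order. With each dish left out the members numbered 1 to 2, the second being Egr1 without Opti-ELF-WMF replicate 1 and Btg2 without Opti-ELF-WMF replicate 3. Fewer dishes separate more easily: 1505 to 1923 of the 12122 tested genes did not overlap then, against 1196 with all dishes. Leaving out a dish moved the members' median between 0.0023 and 0.06 and genes with an unadjusted p-value under 0.05 between 1496 and 1963. Signs turned for Ier5 with median-of-ratios scaling (-0.0040) and rescaling (-0.011). With a dish left out they turned for Ier2 (range -0.028 to 0.079, lower without control replicate 4), Ier3 (-0.00027 to 0.051, without control replicate 3), Ier5 (-0.018 to 0.060, if control dish 3 or 4 or exposed dish 2 was left out), Klf4 (-0.059 to 0.12, if control dish 3 or exposed dish 2 or 4 was left out) and Klf10 (-0.047 to 0.0078, if control dish 3 or exposed dish 4 was left out). Replicate numbers did not pair the dishes: deviations of same-numbered dishes correlated at -0.04 to 0.03 and of others at -0.15 to 0.16. With the number as a block 0 genes were called, 1889 had an unadjusted p-value under 0.05, and Myc had an adjusted p-value of 0.214. Depth is unknown from TPM.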

Other observations

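Factors that act on AU-rich mRNAs were all expressed. Of 16 genes for AU-rich element binding and deadenylation, all 16 were tested, 6 higher and 10 lower, with a median log2 fold change of -0.01 and 0 with an adjusted p-value under 0.05 (limma). Hnrnpd, which encodes the AU-binding protein AUF1, had 305 ± 9.41 TPM in control and 332 ± 14.1 TPM in exposed dishes, with all exposed dishes higher (SD, n = 4; log2 fold change 0.12, unadjusted p = 0.00603, adjusted p = 0.157 by limma). That separation was lost under all 3 other scalings, which left 0 of the 16 higher without overlap. Tia1, an RNA-binding protein of stress granules, had 67.0 ± 5.53 and 58.5 ± 5.58 TPM, and its dishes overlapped (log2 fold change -0.19, unadjusted p = 0.0287, adjusted p = 0.251 by limma).

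The culture medium of AML12 cells holds dexamethasone, and Dusp1 is also a glucocorticoid target. Of 10 glucocorticoid-induced genes, 7 were tested, 4 higher and 3 lower, with a median log2 fold change of 0.0036. Tsc22d3, which encodes the glucocorticoid-induced leucine zipper, was the only one with an unadjusted p-value under 0.05, which 15.6% of all tested genes had. It had 149.0, 145.2, 143.2 and 145.0 TPM in control dishes and 136.7, 137.1, 139.4 and 141.0 TPM in exposed dishes, so that every exposed dish was lower (log2 fold change -0.07, unadjusted p = 0.0137, adjusted p = 0.194 by limma). Fkbp5 was the most abundant (282 TPM, log2 fold change 0.05, unadjusted p = 0.145 by limma), and Sgk1 had the smallest p-value among higher genes (0.05, unadjusted p = 0.122 by limma).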
